A study of Bos taurus with 44 samples.

Results

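The chemokines, the interleukins and their receptors were taken as the genes whose symbol starts with CXCL, CCL, CXCR, CCR or IL and a digit, together with XCL1. This gave 71 genes of the 8073 named by 1 symbol on the arrays: 23 chemokines, 10 chemokine receptors, 20 interleukins, 17 interleukin receptors and the interleukin-binding protein IL18BP. Each gene is represented by 1 probe, and 8 of them have more than 1. All 71 had a value on each of the 44 arrays, so none was lost to a filter. CX3CL1, CX3CR1, XCR1 and IL1RN were not analysed here. Nor was CXCL12, since the probes that name it also carry the symbol SDF1, its older name, and only probes with 1 symbol were used.

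Chemokines are small secreted proteins that attract leukocytes through receptors on the cell surface, and interleukins are secreted signals between immune, epithelial and stromal cells. In the uterus they take part in the recruitment of leukocytes and in the response to the conceptus. In early ruminant pregnancy the conceptus secretes interferon tau, which induces interferon-stimulated genes in the uterine lining. CXCL10, CCL8, IL15 and IL18BP are among the genes known from other systems to be inducible by interferons. Each of them is called higher in SCNT against CJ animals below, so this list is a selection and not complete. Genes that were not called are left out of it, so it does not show that interferon-inducible genes rose as a class. CXCL9 and CXCL11, which share a receptor with CXCL10, are not on the list. Both lay near 0 in SCNT against CJ animals and did not pass the test. The part of interferons in the differences below was not tested.

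The arrays compared uterine tissue of cattle (Bos taurus) in 4 groups. In the AI group the animals were inseminated artificially, and in the IVF-ET group they received embryos fertilised in vitro. SCNT stands for somatic cell nuclear transfer, in which embryos are cloned from body cells. The labels give the CJ group the word cycle and no more. Tissue came from the caruncular area, where the placenta attaches in cattle, or from the intercaruncular area between these sites. The sources used here give no breed, age, day of sampling or donor cells for cloning, and no number of animals in a pool. AI animals carry the name IAT on the arrays with IVF-ET and IAJ on those with SCNT or CJ, and the labels tie no animal of one name to the other.

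Each area has 10 arrays of IVF-ET against AI, from 5 animals of either group. SCNT was set against AI on 4 caruncular arrays of 2 pairs of pools. In the intercaruncular area, 10 arrays set 5 SCNT animals and 10 set 4 IAJ animals against the same 5 CJ animals. Each array gives log2 ratios of 2 dyes, so the values are differences between groups and not levels. A ratio near 0 may come from a gene that is equal in both samples or from one that is not detected in either. The numerator of the ratio is not stated. It was taken to be Cy5, as the likely reading, because ISG15 (4.65 in SCNT and 2.90 in AI animals against CJ) then lies higher and OXTR (-3.54 and -2.71) lower, the direction known from early pregnancy in ruminants. The direction of those genes is therefore no finding, and under the other reading every sign below turns.

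The arrays were of uneven spread. The SD of an array's log2 ratios was 0.221 to 0.62, and the correlation between both spots, across probes, was 0.545 to 0.935. IAJ animal 3, which was on 4 arrays, stood apart from the other IAJ animals. The median ratio of the 7 stromal fibroblast markers against CJ was 0.63 in this animal and -2.38, -2.09 and -1.77 in IAJ animals 1, 2 and 4. For AI against CJ, values without it are given beside the calls among the chemokine, interleukin and receptor genes. They are also given for some, but not all, of the other differences that moved by more than 1.5 times. For the cell type markers, the signalling genes and the cytokine genes outside the naming rule, no fitted differences without it are given. Their calls in AI against CJ are thus not shown to hold without this animal. The labels do not say how animals were kept or matched, and the number of animals limits the precision of every difference.

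The intercaruncular arrays with CJ asked how SCNT and AI tissue differed from CJ tissue. In SCNT animals 11 of the 71 genes rose and 2 fell, with limma's Benjamini-Hochberg adjusted p below 0.05 over all 13824 probes. The largest rises were in the receptors IL6R and CXCR4 and the chemokines CXCL10 and CCL8, and the largest fall was in the chemokine CXCL14. The 13 called genes are 18.3% of the 71, against 21.7% of all probes. Of all probes 10.4% were higher and 11.3% lower. The median difference of the 71 genes was 0.01, as it was over all probes. A total of 9 genes (12.7%) had an absolute log2 difference above 0.5, against 10.1% of all probes.

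**Figure D1:**
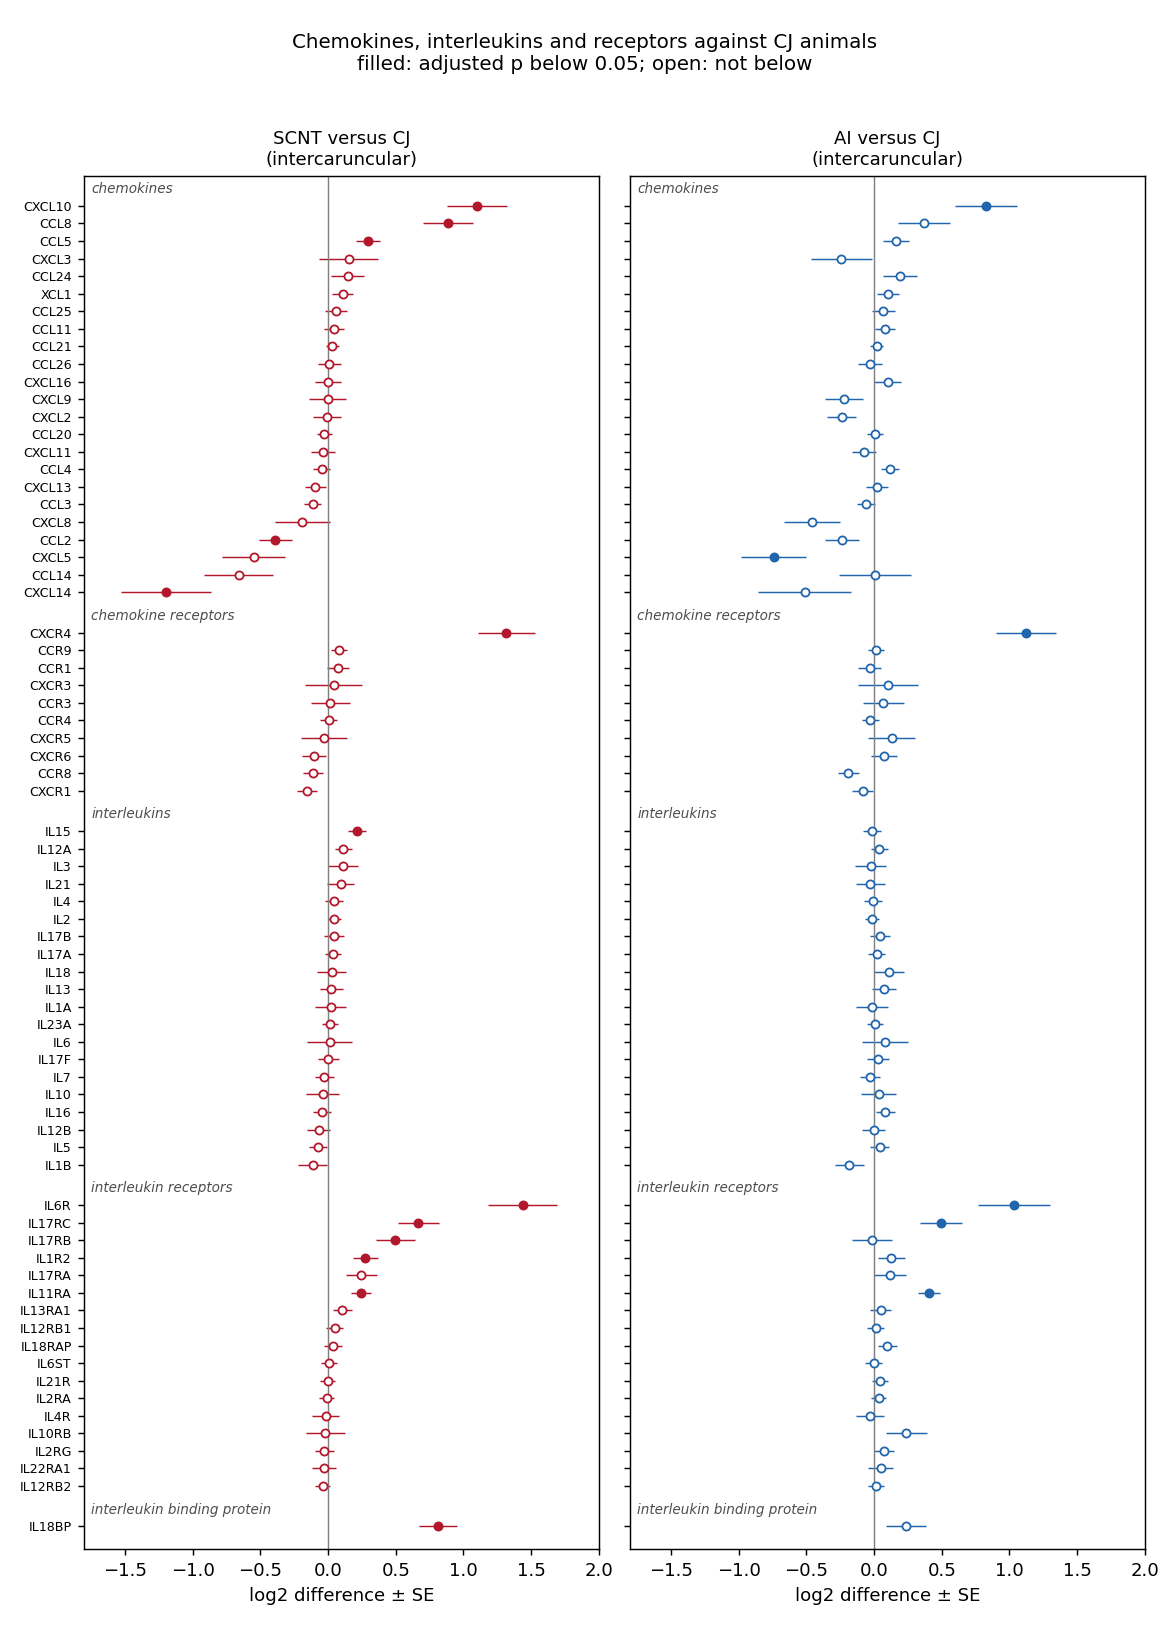
Log2 difference ± SE of each of the 71 genes in SCNT against CJ animals (left) and AI against CJ animals (right), intercaruncular area. Filled points have a limma adjusted p below 0.05. Most genes lie near 0, while IL6R, CXCR4 and CXCL10 lie to the right in both panels and CXCL14 is the lowest point for SCNT at -1.20.

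Among the 23 chemokines, CXCL10, CCL8 and CCL5 rose in SCNT against CJ animals, and CXCL14 and CCL2 fell. CXCL10, which attracts activated T cells and NK cells through CXCR3, had ratios of 1.00, 1.77, 1.02, 1.31 and 0.41 in SCNT animals 1 to 5, each the mean of the animal's 2 arrays. All 5 animals lay above 0, as did 9 of 10 arrays. The fitted difference was 1.10 ± 0.22 (SE, adjusted p = 0.000827), which is 2.14-fold. The 2 neighbours of CXCL10 with the same receptor did not pass the test. CXCL9 was at 0.00 ± 0.13 (adjusted p = 0.991) and CXCL11 at -0.04 ± 0.09 (adjusted p = 0.849). In the gene table of the ARS-UCD2.0 assembly, CXCL11 is the next coding gene to CXCL10, and 1 coding gene lies between CXCL10 and CXCL9.

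CCL8, a chemokine for monocytes and other leukocytes, had ratios of 0.87, 1.03, 0.91, 0.37 and 1.25 in SCNT animals 1 to 5 against CJ. It was above 0 on 10 of 10 arrays, and the difference was 0.88 ± 0.19 (adjusted p = 0.00129, 1.85-fold). CCL8, CCL11 and CCL2 lie next to each other in the gene table. CCL11, which attracts eosinophils, was at 0.04. CCL2, the main attractant of monocytes, fell by 0.39 on the log2 scale (SE 0.12, adjusted p = 0.0267), so that the outer genes of this run differed in direction. CCL2 was at -0.24, -0.37, -0.35, -0.59 and -0.39 in SCNT animals 1 to 5.

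CXCL14, a chemokine made by epithelial cells in many tissues, was at -1.53, -0.65, -1.39, -0.35 and -2.05 in SCNT animals 1 to 5. All 5 lay below 0, with a wide spread between animals, and 1 of 10 arrays lay above 0. The difference was -1.20 ± 0.33 (adjusted p = 0.0116). CCL5, which attracts T cells and monocytes, was higher by 0.29 ± 0.09 (adjusted p = 0.0244). Its other probe was at -0.01, and the mean of both probes did not pass the test (0.14, adjusted p = 0.11). CXCL5 (-0.55 ± 0.23, adjusted p = 0.103) and CCL14 (-0.66 ± 0.25, adjusted p = 0.0701) lay low without passing, and CXCL8, the main attractant of neutrophils, was at -0.19 ± 0.20 (adjusted p = 0.62). CCL14 passed without IAJ animal 3 (-0.66, adjusted p = 0.0422) and without SCNT animal 4 (-0.91, adjusted p = 0.0204), and CXCL5 passed without CJ animal 2 (-0.62, adjusted p = 0.0475). With only the arrays that pair SCNT with CJ, both passed at unchanged differences (adjusted p = 0.0419 for CCL14 and 0.0314 for CXCL5), as did CCL14 with a correlation of 0 between arrays that share an animal (adjusted p = 0.044).

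The other 15 chemokines lay between -0.12 (CCL3) and 0.15 (CXCL3) in SCNT against CJ animals. Among them CCL4, which with CCL3 attracts monocytes and T cells, was at -0.05 and the mucosal chemokine CCL20 at -0.03. CCL21 and CXCL13, which guide cells into lymphoid tissue, were at 0.03 and -0.09. CCL24 and CCL26, which share the receptor CCR3 with CCL11, were at 0.14 and 0.01, and XCL1 was at 0.11. Cross-hybridisation between related chemokines was not tested.

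Among the chemokine receptors, only CXCR4 of 10 passed the test in SCNT against CJ animals. CXCR4 is the receptor of CXCL12 and is found on most leukocytes and on many epithelial and endothelial cells. Its ratios were 0.68, 1.71, 1.28, 1.21 and 1.71 in SCNT animals 1 to 5, and the lowest of the 10 arrays was at 0.51. The difference was 1.32 ± 0.21 (adjusted p = 0.000108, 2.49-fold). The other 9 receptors lay between -0.15 (CXCR1) and 0.08 (CCR9). ACKR3, an atypical receptor that takes up CXCL12 and lies outside the naming rule, fell by 1.08 on the log2 scale (SE 0.17, adjusted p = 6.95e-05).

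Of the 20 interleukins, IL15 alone passed the test in SCNT against CJ animals. IL15, which sustains NK cells and memory T cells, was at 0.24, 0.16, 0.14, 0.13 and 0.39 in SCNT animals 1 to 5. The values are small but all above 0, and the difference was 0.21 ± 0.07 (adjusted p = 0.0233). The 20 interleukins ranged from -0.11 (IL1B) to 0.21 (IL15), and none reached 0.5. IL1A (0.02 ± 0.11), IL1B (-0.11 ± 0.11), IL6 (0.01 ± 0.16), IL10 (-0.04 ± 0.12) and IL18 (0.03 ± 0.11) did not pass the test. IL2 (0.04), IL4 (0.05), IL12A (0.11), IL17A (0.04), IL17F (0.00) and IL21 (0.09), cytokines of T cell responses, lay near 0 too. For these secreted signals the ratios do not tell an equal level from one that was not detected.

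Of the 17 interleukin receptors, IL6R, IL17RC, IL17RB, IL11RA and IL1R2 rose in SCNT animals and 0 fell. IL6R, the receptor chain that binds IL6, was at 1.60, 1.15, 1.68, 1.28 and 1.47 in SCNT animals 1 to 5. These 5 values lay close together, and all 10 arrays were above 0 (lowest 0.40). The difference was 1.44 ± 0.26 (adjusted p = 0.000318), the largest of all 71 genes at 2.71-fold. IL6ST, the chain that IL6R needs for signalling and that several cytokines share, was at 0.01 ± 0.06 (adjusted p = 0.958).

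IL17RC, which pairs with IL17RA to bind IL17A and IL17F, was at 0.61, 0.81, 0.37, 0.84 and 0.71 in SCNT animals 1 to 5. All 10 arrays lay above 0, and the difference was 0.67 ± 0.15 (adjusted p = 0.0023). Its other probe was called too, with a smaller value (0.26, adjusted p = 0.0222). IL17RB, part of the receptor of IL25, was at 0.19, 0.98, 0.56, 0.69 and 0.05 and rose by 0.50 ± 0.14 (adjusted p = 0.0153). IL17RA was at 0.25 ± 0.12 (adjusted p = 0.146).

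The remaining calls among the receptors were small. IL11RA, the receptor of IL11, a cytokine needed for decidualisation in mice, was at 0.24 ± 0.08 (adjusted p = 0.026), with its other probe at 0.20 (adjusted p = 0.0745). IL1R2, a decoy receptor that binds IL1 without signalling, was at 0.28 ± 0.10 (adjusted p = 0.0413), with its other probe at 0.28 (adjusted p = 0.072). SCNT animal 1 was highest for IL1R2 at 0.87 and SCNT animal 4 lowest at -0.11. The other 11 receptors apart from IL17RA lay between -0.04 (IL12RB2) and 0.11 (IL13RA1). Among them were IL2RA (-0.01) and IL2RG (-0.03), chains of the IL2 receptor, IL4R (-0.02), IL10RB (-0.02) and IL18RAP, a chain of the IL18 receptor (0.04).

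IL18BP, a secreted inhibitor that binds IL18, rose in SCNT against CJ animals. Its ratios were 0.31, 0.48, 1.67, 0.88 and 0.70 in SCNT animals 1 to 5, and all 10 arrays were above 0. SCNT animal 3 was the highest. The difference was 0.81 ± 0.14 (adjusted p = 0.000223, 1.75-fold), while IL18 itself was at 0.03.

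CXCR4, IL6R, IL18BP, CCL8, CXCL10 and IL17RC kept their SCNT call whichever of the 14 animals was left out. With a preset correlation of 0.4 between arrays that share an animal, in place of the estimated 0.12, CXCR4, IL6R and IL18BP alone of the 13 were called. CCL8 (adjusted p = 0.121), CXCL10 (adjusted p = 0.0788), IL17RC (adjusted p = 0.0845) and CXCL14 (adjusted p = 0.0994) were not. The smaller calls of CCL2, CCL5, IL11RA, IL15 and IL1R2 were also lost under at least 1 other setting, such as the first spot alone for all but CCL2. CXCL14 lost it without CJ animal 4 (-0.89) or SCNT animal 5 (-0.99), and IL15 without CJ animal 3 (0.16), 4 (0.24) or 5 (0.17) or SCNT animal 5 (0.17). CCL2 lost its call without CJ animal 1 (-0.28), 4 (-0.40) or 5 (-0.40) or SCNT animal 1 (-0.41), 4 (-0.34) or 5 (-0.38). CCL5 lost it without CJ animal 1 (0.25) or 2 (0.24) or SCNT animal 2 (0.21), 3 (0.30) or 4 (0.27). IL17RB was not called without CJ animal 1 (0.45) or 2 (0.34) or SCNT animal 2 (0.38) or 4 (0.43). IL11RA was not called without CJ animal 1 (0.21), 4 (0.26) or 5 (0.19) or SCNT animal 4 (0.15) or 5 (0.23). IL1R2 was not called without CJ animal 1 (0.32), 2 (0.32), 3 (0.22) or 4 (0.18), without SCNT animal 1 (0.14), 3 (0.26) or 5 (0.29), or without IAJ animal 1, 2 or 4 (0.28 each). The count of 13 was 8 without CJ animal 1, CJ animal 4 or SCNT animal 5. It was 14 without IAJ animal 3, where the share of all probes called rose as well, to 27.5%.

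In AI against CJ animals, 5 of the 71 genes rose and 1 fell. CXCR4, IL6R and CXCL10 again had the largest rises, and CXCL5 was the gene that fell. The 6 called genes are 8.45% of the 71, against 15% of all probes, of which 6.92% were higher and 8.08% lower. The median difference of the 71 genes was 0.03, against 0.01 over all probes, and 5 genes (7.04%) had an absolute difference above 0.5, against 7.72% of all probes. Both comparisons use the same CJ animals and are thus not independent of each other.

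CXCR4 was at 1.12, 1.88, 0.15 and 1.97 in IAJ animals 1 to 4 against CJ. IAJ animal 3 was the only one near 0. IAJ animal 1 lay within the range of the SCNT animals, and IAJ animals 2 and 4 lay above it. The difference was 1.12 ± 0.22 (adjusted p = 0.00121, 2.18-fold), and 1.66 ± 0.17 without IAJ animal 3. The other chemokine receptors lay between -0.19 (CCR8) and 0.13 (CXCR5, at 0.01 without that animal). ACKR3 fell here too, by 0.87 on the log2 scale (SE 0.17, adjusted p = 0.00144).

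IL6R was at 1.67, 1.37, -0.09 and 1.96 in IAJ animals 1 to 4. It was below 0 in IAJ animal 3 and above 1 in the other 3. The difference was 1.04 ± 0.27 (adjusted p = 0.00973), and 1.67 ± 0.24 without that animal. IL6ST was at 0.00 ± 0.06 and IL6 at 0.08 ± 0.17.

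IL17RC was lowest in the same animal, at 0.99, 0.75, -0.11 and 0.74 in IAJ animals 1 to 4, with a difference of 0.50 ± 0.15 (adjusted p = 0.0318). Without IAJ animal 3 it was 0.83 ± 0.13. Its other probe was at 0.14 and not called. IL11RA differed from these receptors, since IAJ animal 3 was highest for it (0.33, 0.35, 0.56 and 0.30 in IAJ animals 1 to 4). Its difference was 0.41 ± 0.08 (adjusted p = 0.00118), 0.32 without that animal, but its other probe was at -0.01. IL17RB was at -0.02 ± 0.15 (0.20 ± 0.16 without IAJ animal 3) and IL1R2 at 0.13, neither called. Of the 14 receptors not called, IL10RB was highest at 0.24 ± 0.15 (0.11 ± 0.12 without that animal) and IL4R lowest at -0.03.

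CXCL10 was at 1.86, 0.64, 0.62 and 0.32 in IAJ animals 1 to 4 against CJ. All 4 animals and all 10 arrays were above 0, and IAJ animal 1 was well above the other 3. The difference was 0.83 ± 0.23 (adjusted p = 0.0147, 1.77-fold), and 0.94 ± 0.25 without IAJ animal 3. CXCL9 (-0.22 ± 0.14, adjusted p = 0.387, and 0.02 without IAJ animal 3) and CXCL11 (-0.08 ± 0.09, adjusted p = 0.766) did not pass here either. CCL8 was at 0.30, 0.66, -0.09 and 0.89 in IAJ animals 1 to 4. Its difference of 0.37 ± 0.19 (adjusted p = 0.247) passed the test only without IAJ animal 3 (0.62, adjusted p = 0.0373).

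CXCL5, which attracts neutrophils through CXCR2, was at -0.77, -1.26, -0.34 and -0.86 in IAJ animals 1 to 4. It was below 0 in all 4, and the difference was -0.74 ± 0.24 (adjusted p = 0.0396), and -0.97 ± 0.26 without IAJ animal 3. The low ratios of CXCL5 lay on the arrays with 2 of the CJ animals, at -1.85 with CJ animal 2 and -1.44 with CJ animal 4, against -0.18 to 0.03 with the other 3. CXCL8, which lies near CXCL5 in the gene table with 1 coding gene between them, was at -0.90, -0.91, -0.07 and -0.21 in IAJ animals 1 to 4. Its difference of -0.46 ± 0.21 (adjusted p = 0.169) passed without IAJ animal 3 (-0.67, adjusted p = 0.0431).

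CXCL14 differed widely between the IAJ animals, at -1.74, -1.20, -0.36 and 1.12. IAJ animal 4 was the only one of the 9 SCNT and IAJ animals above 0. The difference was -0.51 ± 0.34 (adjusted p = 0.437), and -1.02 without IAJ animal 4 (adjusted p = 0.0339). IL18BP was at 0.57, 0.66, -0.19 and 0.19, with a difference of 0.24 ± 0.15 (adjusted p = 0.373). Without IAJ animal 3 the difference of IL18BP was 0.47 ± 0.17 (adjusted p = 0.0534), just short of the threshold. CCL2 (-0.24 ± 0.13, adjusted p = 0.279), CCL5 (0.16 ± 0.10, adjusted p = 0.341) and IL15 (-0.01 ± 0.07, adjusted p = 0.971) were not called. None of the 20 interleukins was called by limma, against 15% of all probes. An unadjusted p below 0.05 was found for 0 of the 20, against 24.9% of all probes. They ranged from -0.18 (IL1B) to 0.11 (IL18), with IL1A (-0.01), IL6 (0.08) and IL10 (0.03) between. Without IAJ animal 3, IL18 was at 0.21 ± 0.12 and IL6 at 0.12 ± 0.20, neither called.

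**Figure D2:**
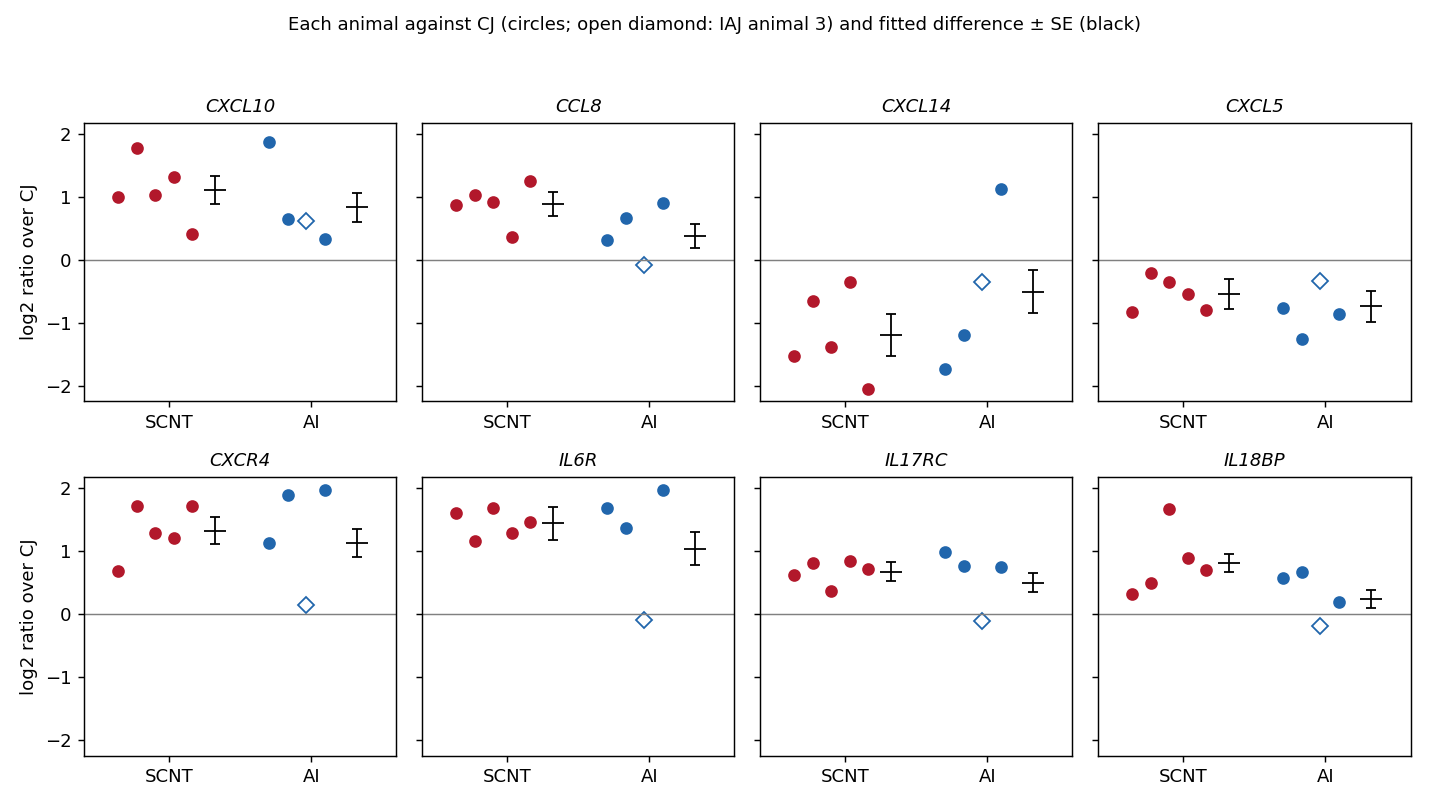
Mean log2 ratio over CJ of each SCNT animal (red, 5 animals) and each AI animal (blue, 4 animals, IAJ animal 3 as an open diamond) for 8 genes, with the fitted difference ± SE in black. IAJ animal 3 lies near 0 for CXCR4 (0.15), IL6R (-0.09) and IL17RC (-0.11), where the other IAJ animals lie among the SCNT animals or above them.

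CXCR4 and IL11RA kept their call in AI against CJ whichever animal was left out. IL11RA lost it with the mean of its probes (0.20, adjusted p = 0.0567). With the correlation of 0.4, CXCR4 and IL6R alone of the 6 were called, and with only the arrays that pair AI with CJ, CXCR4 and IL11RA alone. IL6R lost it without CJ animal 1 (0.84) or 2 (0.90) or IAJ animal 1 (0.90), 2 (0.93) or 4 (0.85). CXCL10 lost it without CJ animal 2 (0.70) or IAJ animal 1 (0.56). CXCL5 was not called without CJ animal 2 (-0.43) or 4 (-0.55), IAJ animal 1 (-0.74), 2 (-0.59) or 4 (-0.75) or SCNT animal 4 (-0.74). IL17RC was not called without CJ animal 1 (0.48), 2 (0.42), 4 (0.46) or 5 (0.51) or IAJ animal 1 (0.36), 2 (0.42) or 4 (0.45). The count of 6 was 2 without CJ animal 2 or IAJ animal 1 and 3 without IAJ animal 2. Without IAJ animal 3 it was 8, of which 6 were higher and 2 lower, against 20.4% of all probes.

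Markers of cell types were measured on the same arrays. Of 14 T and NK cell, 11 macrophage and dendritic, 6 B cell and 4 neutrophil markers, 0 were called in SCNT against CJ animals, and AIF1 of macrophages alone in AI against CJ (0.24). The median of the T and NK cell markers was -0.04 to 0.14 over the SCNT animals and 0.03 to 0.06 over the IAJ animals. Of 7 pan leukocyte markers, CD53 (0.72) and CD52 (0.45) rose and CORO1A (-0.29) fell in SCNT animals, and CD53 (0.47) and CD52 (0.44) rose in AI animals. The called markers are 42.9% and 28.6% of the 7, against 21.7% and 15% of all probes. In bulk tissue, fewer cells of a type and less RNA per cell cannot be told apart.

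Epithelial and stromal markers were called in the same contrasts, and their counts are to be read against the 21.7% of all probes called for SCNT and 15% for AI. Of 10 epithelial markers, 5 were higher and 1 lower in SCNT animals and 2 were higher in AI animals. CLDN3 was at 1.28 and 0.98, and the marker that fell in SCNT animals was KRT19, at -1.01. The called markers are 60% and 20% of the 10. Of 7 stromal fibroblast markers, 6 (85.7%) fell in SCNT animals (median -1.62) and 3 (42.9%) in AI animals (median -0.94). The AI value includes IAJ animal 3, whose median ratio of these markers was 0.63. IAJ animals 1, 2 and 4, at -2.38, -2.09 and -1.77, lay within the range of the SCNT animals (-2.45 to -0.996). A weaker stromal fall in AI than in SCNT animals is therefore not shown. Of 9 trophoblast markers, 4 (44.4%) rose in SCNT animals, with TKDP1 at 0.88, and 0 were called in AI animals. Their median was 0.05 to 1.41 over the SCNT animals, with SCNT animal 4 highest. Between SCNT and AI through CJ, 0 of the 9 were called, so a difference between these groups is not shown. Of 8 endothelial markers, 3 rose and 1 fell in SCNT animals, and 1 rose and 1 fell in AI animals. The part of these cell types in the differences of the chemokine and interleukin genes was not tested.

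Genes that act downstream of these receptors were called at about the rate of all probes. Of 15 measured JAK, STAT and SOCS genes and their regulators, 3 were called in SCNT against CJ, 2 of them higher. These were PTPN6, a phosphatase that dampens cytokine signalling (0.43), JAK1, the kinase bound to IL6ST and many other receptors (0.27), and JAK3, the kinase bound to IL2RG (-0.64). In AI against CJ, 3 rose and 0 fell, namely PTPN6 (0.37), JAK1 (0.41) and PIAS1, an inhibitor of STAT proteins (0.39). The 3 called are 20% of the 15 in each comparison, near the 21.7% and 15% of all probes. The median of the list was -0.04 for SCNT and -0.06 for AI, against 0.01 over all probes in each.

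Of 19 measured genes of NF-kappaB and interleukin-1 receptor signalling, 5 were called in SCNT against CJ, 4 of them higher. MYD88, the adaptor of interleukin-1 and Toll-like receptors, was at 0.52, the NF-kappaB inhibitor NFKBIA at 0.71, and the NF-kappaB subunits RELA and RELB at 0.47 and -0.35. In AI against CJ, RELA (0.59) and TNIP1, a negative regulator of NF-kappaB (0.35), rose and 0 fell. The shares called, 26.3% and 10.5%, also lie near those of all probes. Of 35 other cytokines and receptors outside the naming rule, 5 rose and 6 fell in SCNT animals (31.4%) and 5 rose and 3 fell in AI animals (22.9%). TNFRSF1A, a receptor of tumour necrosis factor, was at 0.53 in SCNT and 0.49 in AI animals, and FLT3LG, a growth factor of dendritic cells, at 0.58 and 0.42. FAS, a death receptor, was at 0.81 in SCNT and 0.47 in AI animals, and CD74, a receptor of MIF and chaperone of MHC class II, at 1.19 in AI animals. ACKR3 was among those that fell, at -1.08 in SCNT and -0.87 in AI animals. The genes named from this list are those with the smallest p in either comparison, and the other genes that fell are not named.

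SCNT and AI animals were compared in the intercaruncular area through the shared CJ animals. By limma 0 of the 71 genes passed the test, and 0.282% of all probes were called. An unadjusted p below 0.05 was found for 4 of the 71 (5.63%), against 7.65% of all probes. Those 4 were IL18BP (0.57 ± 0.18, adjusted p = 0.325), IL17RB (0.51 ± 0.19, adjusted p = 0.419), IL15 (0.23 ± 0.09, adjusted p = 0.465) and CCL8 (0.51 ± 0.24, adjusted p = 0.63), each higher in SCNT. Without IAJ animal 3, IL18BP was at 0.33 ± 0.21, IL17RB at 0.29 ± 0.21 and CCL8 at 0.27 ± 0.26. The genes called against CJ in 1 of the 2 groups were thus not shown to differ between SCNT and AI. CXCR4 was at 0.19 ± 0.28, IL6R at 0.40 ± 0.33, CXCL10 at 0.27 ± 0.28 and CXCL14 at -0.68 ± 0.43. Without IAJ animal 3 the count stayed at 0, and CXCL10 was at 0.16 ± 0.31. CXCR4 was then at -0.34 ± 0.22 and IL6R at -0.23 ± 0.31. The sign for these 2 receptors thus turned with 1 animal.

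The caruncular pools are the only arrays that pair SCNT with AI. By limma 0 of the 71 genes and 0% of all probes were called, and 3 of the 71 (4.23%) had an unadjusted p below 0.05, against 12.6% of all probes. IL6R had the largest difference. It was at -1.09 in the first pair of pools and -1.43 in the second, and all 4 arrays were below 0. The difference was -1.26 ± 0.11 (adjusted p = 0.0753), the opposite sign to the intercaruncular comparison of SCNT with AI (0.40, or -0.23 without IAJ animal 3). The areas and the animals behind these 2 values differ, and the difference between them was not tested. IL6R passed the threshold with array medians subtracted (adjusted p = 0.0445) or with the first spot alone (adjusted p = 0.0102), settings that called 16 and 94 probes. It also passed with the 4 arrays taken as separate values (adjusted p = 0.00992, 257 probes called), but that setting counts dye swaps of the same pools as replicates. The difference of IL6R was -1.26 to -1.27 in each.

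Beside IL6R, the pools gave IL11RA at 0.29 and 0.25 in the 2 pairs (0.27 ± 0.08, adjusted p = 0.296). CXCL16, a chemokine that also exists as a membrane protein, was at -0.26 ± 0.09 (adjusted p = 0.361). CXCL10 was at 0.58 and 0.02, CCL8 at 0.68 and -0.38, and IL18BP at 0.80 and -0.12, so the pairs disagreed in size or sign. CXCR4 was at -0.10 and -0.22 and CXCL8 at 0.01 and 0.03. CXCL9 was at -0.29 ± 0.15, CXCL11 at 0.03, CCL2 at 0.00, CCL5 at -0.10, IL15 at 0.01 and IL18 at -0.09. IL1A (0.02), IL1B (0.11), IL6 (-0.01), IL6ST (0.13) and IL10 (0.05) were likewise not called. The 10 epithelial markers had a median of -0.39 in the pools, with 0 called.

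IVF-ET and AI were compared to ask whether tissue differed between these 2 origins of the embryo. In the caruncular area 0 of the 71 genes were called by limma, against 0.0217% of all probes, and 10 (14.1%) had an unadjusted p below 0.05, against 9.11% of all probes. The smallest of these p was that of IL18BP. It was higher in all 5 IVF-ET animals, at 0.21, 0.53, 0.53, 0.76 and 0.79, and on 9 of 10 arrays. The difference was 0.56 ± 0.10 (unadjusted p = 0.00016, adjusted p = 0.233). Without IAT animal 7 it was 0.69 and passed the threshold (adjusted p = 0.0436).

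In the intercaruncular area IL18BP was again above 0 in all 5 IVF-ET animals, at 0.12, 0.37, 1.09, 0.54 and 0.23, and on 7 of 10 arrays. Its difference was 0.47 ± 0.18 (adjusted p = 0.488), close to that of the caruncular area. The test of the difference between areas gave 0.09 ± 0.22 (adjusted p = 0.94), and 0.43 (adjusted p = 0.759) with arrays scaled to equal spread. The same 5 IVF-ET animals were used in both areas, and 3 of the IAT animals too, so the areas do not give separate animals.

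CXCL10 was at -0.06, -0.16, -0.50, -1.50 and -0.19 in IVF-ET animals 1 to 5 in the caruncular area. All 5 were below 0, and IVF-ET animal 4 was far lower than the others. The difference was -0.48 ± 0.21 (adjusted p = 0.522). In the intercaruncular area the same animals lay between -0.58 and 0.88, and the difference was 0.04 ± 0.19 (adjusted p = 0.973). The difference between areas was -0.52 ± 0.30 (adjusted p = 0.681). CXCL14 was at 0.50 ± 0.19 (adjusted p = 0.485) in the caruncular and 0.72 ± 0.40 (adjusted p = 0.61) in the intercaruncular area, and IVF-ET animal 4 was highest in both, at 1.57 and 2.66. CXCL14 was at 0.43, 0.17, 0.19 and 0.13 in the other 4 IVF-ET animals in the caruncular area, all above 0, and at 1.29, -0.93, 0.02 and 0.58 in the intercaruncular area, where they spread on both sides of 0.

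**Figure D3:**
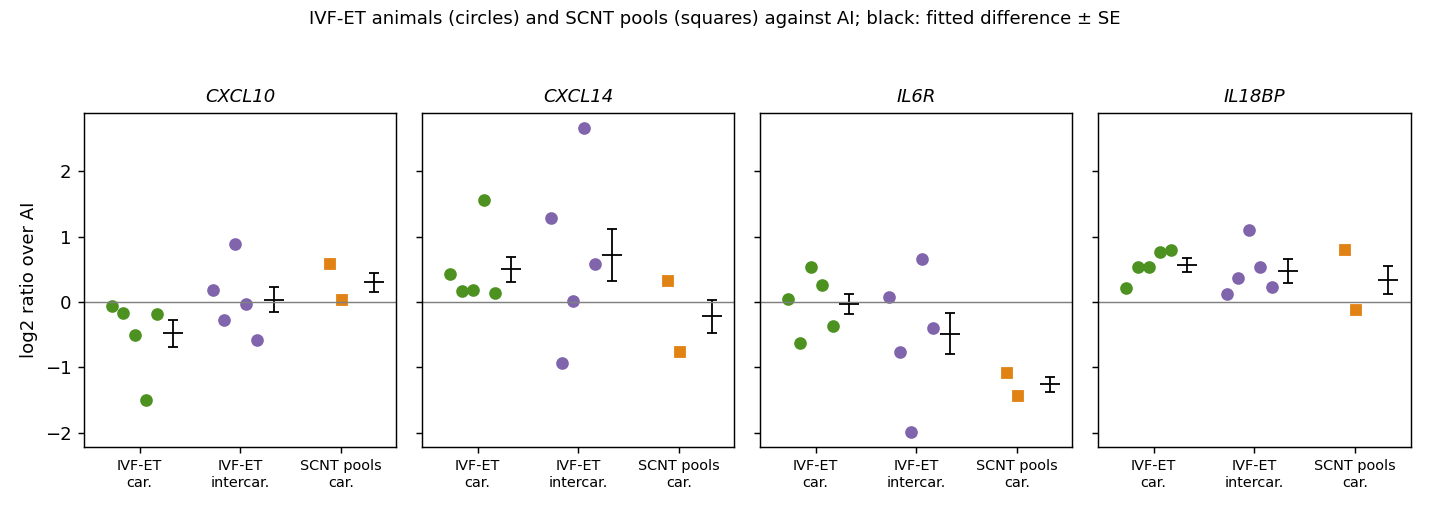
Mean log2 ratio over AI of each IVF-ET animal (circles, 5 per area) and each SCNT pool (squares, 2 pools) for CXCL10, CXCL14, IL6R and IL18BP, with the fitted difference ± SE in black. IL18BP lies above 0 in all IVF-ET animals, and IL6R lies below -1 in both pools, while none of the 12 differences drawn has a limma adjusted p below 0.05.

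The other genes at an unadjusted p below 0.05 in the caruncular area differed by at most 0.20. CCL2 (0.11), CCL5 (0.15), CXCL2 (0.08), CXCL9 (0.11) and IL11RA (0.20) were higher in IVF-ET, and IL7 (-0.10) and IL18RAP (-0.11) lower. The other probes of CCL5 (-0.08) and IL11RA (-0.06) had the opposite sign. In the intercaruncular area 0 of 71 were called by limma, against 0.00724% of all probes, and 6 (8.45%) had an unadjusted p below 0.05, against 9.30% of all probes. Beside IL18BP these were CCL26 (0.18), CCR3 (-0.26), CXCL2 (-0.18), CXCR1 (-0.22) and IL6 (-0.27). Between the areas 0 genes were called by limma, against 0.00723% of all probes, and 5 (7.04%) had an unadjusted p below 0.05, against 7.74% of all probes. CXCL2, which attracts neutrophils, had the smallest p of the 5 (0.26 ± 0.08, adjusted p = 0.516).

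Of the genes that led the comparisons with CJ, CXCR4, CCL8 and IL17RC had small differences between IVF-ET and AI, none called. CXCR4 was at -0.16 ± 0.11 in the caruncular and 0.06 ± 0.13 in the intercaruncular area, CCL8 at -0.11 ± 0.12 and -0.18 ± 0.17, and IL17RC at -0.01 and -0.12. IL6R was at -0.03 ± 0.15 in the caruncular area. In the intercaruncular area it was at 0.07, -0.77, -1.98, 0.66 and -0.40 in IVF-ET animals 1 to 5, a wide spread around -0.48 ± 0.31 (adjusted p = 0.661). CXCL8 (-0.06 and -0.15), CXCL9 (0.11 and 0.06), CCL2 (0.11 and 0.02), CCL5 (0.15 and -0.02), CXCL11 (-0.11 and 0.17), IL1A (-0.06 and -0.15), IL1B (-0.07 and -0.06), IL6 (0.06 and -0.27), IL6ST (-0.05 and -0.05), IL10 (-0.03 and -0.09) and IL15 (-0.02 and 0.07) were not called in the caruncular and intercaruncular areas. None of the genes of the 3 downstream and related lists was called in either area or in the pools.

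IL18 had the largest difference of the 71 genes in the caruncular comparison, and it rested on 1 array. IVF-ET animal 3 was at -3.28, while the other 4 IVF-ET animals were at -0.19 to 0.01. On the array of IVF-ET animal 3 with IAT animal 7 the ratio was -6.71, and both spots were low (-6.60 and -6.81). The other array of IVF-ET animal 3 was at 0.14 and the other array of IAT animal 7 at 0.01. In the intercaruncular area the same 2 animals on 1 array gave 0.16. That caruncular array also had the largest spread of its loop, an SD of 0.494 against 0.221 to 0.307 on the other 9. The fitted difference of IL18 was -0.72 ± 0.61 (adjusted p = 0.741) with the array and -0.07 without it, and the difference between areas went from -0.64 to 0.01.

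**Figure D4:**
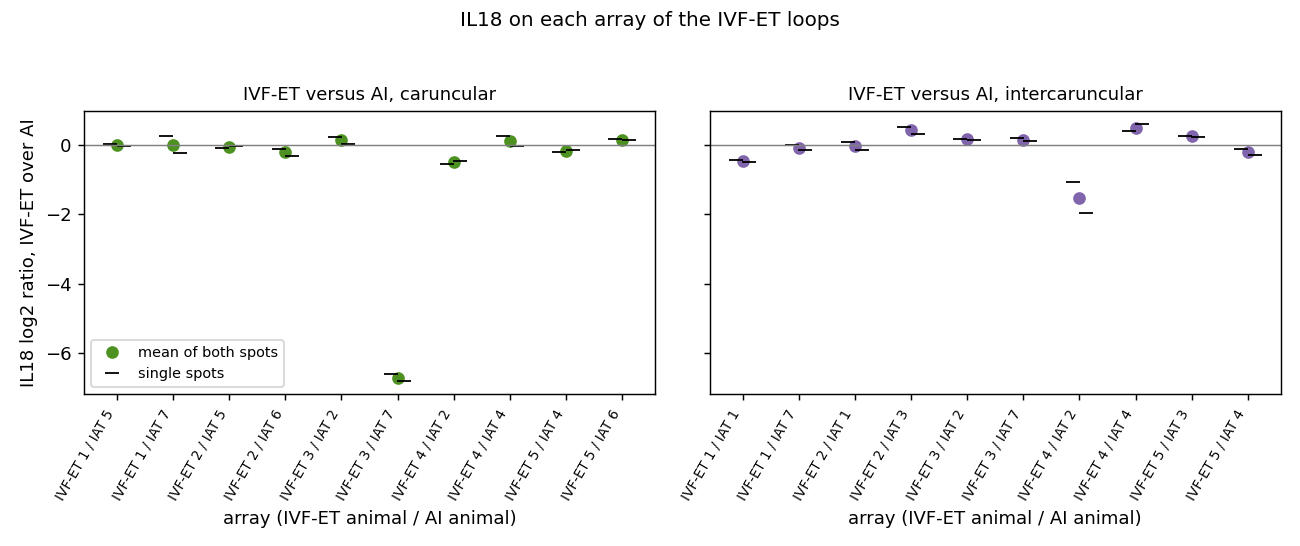
Log2 ratio of IL18, IVF-ET over AI, on each of the 10 arrays of the caruncular (left) and the intercaruncular loop (right). Points are the mean of both spots and dashes the single spots, and each array is named by its IVF-ET and its IAT animal. The caruncular array of IVF-ET animal 3 with IAT animal 7 lies at -6.71 and the other 9 between -0.50 and 0.16.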

How the data were processed

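The deposited values are log2 ratios of 2 dyes per spot, made by the authors. How background was corrected and values normalized is not stated in the sources used here. Of 331 values below -4, 100% equalled log2 of a ratio with 4 decimals. Array medians were -0.0238 to 0.00995, and no normalization was added. The 27648 spots are 13824 probes with 2 spots, which were averaged. The annotation gives 8645 probes 1 symbol, 105 several and 5074 none. The gene table supplied (ARS-UCD2.0) held 8620 of the 8645 by Entrez number.

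Differences came from limma 3.58.1 (R 4.3.3), fitted to ratios whitened for 1 correlation between arrays that share an animal, beside a term for dye (0.13 in the caruncular loop, 0 in the intercaruncular, 0.01 over both, 0.12 with CJ). Dye-swapped arrays of a pair of pools were averaged, and the 2 values tested against 0. Probes measured on 80% or more of a fit's arrays were tested, two-sided, with Benjamini-Hochberg adjustment over all of them and a threshold of 0.05. The fits were tried on simulated data with changes larger than most of those called here. AI against CJ was left out of that trial, and no result here rests on it. An animal's value is the mean of its arrays.

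Every gene past the threshold is named, with each animal's value for those with the largest differences, and so are CXCL8, CXCL9, CXCL10, CXCL11, CXCR4, CCL2, CCL5, CCL8, IL1A, IL1B, IL6, IL6ST, IL10, IL15 and IL18 throughout. Of the pathway lists up to 4 genes are named, by p. Other genes were chosen after their values were seen. The gene set, the lists and the tests were chosen with earlier results of these data known. The planned search of promoters for motifs was not run. Alternatives were array centring and scaling, 1 spot, the mean of a gene's probes, no missing values, robust eBayes, other correlations, no dye term, an animal block across areas, fewer arrays and each animal left out. Leaving out the widest caruncular array was chosen after seeing the data.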

Additional observations from a re-analysis of the deposited data

Results flagged for a closer look

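Among 92 groups of 4 or 5 animals, 1 per named gene and comparison, 5 held an animal far from the others by Dixon's criterion, which chance gives in about 1 of 20 groups. For IL18 in the caruncular area, IVF-ET animal 3 was at -3.28, which rests on the array at -6.71. CXCL14 was at 1.57 in IVF-ET animal 4 in the same area, against 0.13 to 0.43 in the other 4. IL15 was at 0.55 in IVF-ET animal 2 in the intercaruncular area, against -0.14 to 0.03. IL1B was at -0.35 in SCNT animal 5 against CJ, with the other 4 at -0.10 to -0.01. IL1B was at -0.83 in IAJ animal 1 against CJ, with the other 3 at -0.04 to 0.04.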

How the results depend on the processing

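Of the genes called against CJ, CXCR4 in both comparisons and IL6R and IL18BP in SCNT kept their call under all 24 alternatives run, and no called gene changed sign. With a correlation of 0.4 between arrays that share an animal, the count fell from 13 to 3 in SCNT and from 6 to 2 in AI against CJ. With only the arrays that pair AI with CJ, the count for AI was 2. With 1 animal left out, the counts were 8 to 14 for SCNT and 2 to 8 for AI against CJ, and 0 to 1 for IVF-ET against AI in the caruncular area (IL18BP without IAT animal 7). In the pools the count went from 0 to 1, which was IL6R, with array medians subtracted, the first spot only or 4 separate arrays. The cause of these changes was not tested. For the other comparisons the count stayed at 0 under every alternative. Over all probes the counts with 1 animal left out were 2046 to 3804 for SCNT and 1286 to 2826 for AI against CJ, and 950 and 431 with the correlation of 0.4. Spot intensities were not used here, so no detection limit can be given. Each pair of pools alone gives a value with no test. Every array sets 2 animals or pools against each other, so the direct comparisons are paired within arrays. The comparison of SCNT with AI through CJ and the difference between areas are contrasts between separate sets of arrays. Linking the areas of an animal by a block left the count for the difference between areas at 0.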
